A study of Homo sapiens with 6 samples.

Results

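The 9 genes described here are matrix metalloproteases and parts of the plasminogen system with their inhibitors, chosen by name (MMP1, MMP7, MMP14, PLAU, PLAUR, PLAT, SERPINB5, TIMP1 and TIMP2) from the 19912 rows of an mRNA table. All 9 were found, and 7 of them passed the filter for testing, a mean of at least 0.5 FPKM over the 6 libraries (FPKM counts fragments per kilobase of a gene, relative to the total of each library). Expression was measured in 6 libraries labelled as a gemcitabine-resistant form of Panc-1, a human pancreatic carcinoma line. The 3 control libraries carry the treatment label ctrl, and the 3 others the label shSRSF3, meaning a knockdown of the splicing factor gene SRSF3. The labels name no clone, culture, date or batch, so the p-values reflect the spread among these 6 libraries alone, and that spread may be technical.

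Matrix metalloproteases are zinc-dependent enzymes that cleave collagens, laminins and other proteins around cells. They are made as inactive precursors and are blocked by the tissue inhibitors of metalloproteases, the TIMPs. In the plasminogen system, the serine proteases urokinase (PLAU) and tissue plasminogen activator (PLAT) turn circulating plasminogen into plasmin, which digests fibrin and activates some metalloproteases. The urokinase receptor (PLAUR) holds urokinase at the cell surface. In pancreatic carcinoma these genes are studied for their part in invasion.

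SRSF3 itself was not detectably lower in the shSRSF3 libraries, at 38.6 ± 1.40 FPKM in controls and 37.5 ± 0.900 FPKM there (SD, n = 3; log2 change -0.04, 95% interval from -0.15 to 0.07, limma adjusted p = 0.612). Every direction below is therefore that of a label, and these libraries are called shSRSF3 libraries after it. Recovered library totals ran from 24558238 to 27351642 fragments. Library 1 of the shSRSF3 group stood apart from the other 2 of its group, with a chi-square per gene of 14.9 and 25.4 against counting noise, where pairs of controls gave 3.25 to 5.90. Libraries 2 and 3 of the shSRSF3 group also differed more than any pair of controls, at 8.55. Pairs of a control and a shSRSF3 library gave 15.1 to 42.7, so the spread within the shSRSF3 group reached into that range. The mitochondrial mRNAs of shSRSF3 library 1 summed to 108068 FPKM, against 84716 and 73651 FPKM in shSRSF3 libraries 2 and 3 and 70369 to 74760 FPKM in controls. The epithelial genes KRT8, KRT18, KRT19, EPCAM and CDH1 were abundant, while vimentin (VIM), commonly reported as abundant in Panc-1, lay between 0.00709 and 0.0389 FPKM, and KRT7 between 0.0895 and 0.241 FPKM. Of 10 fibroblast, 8 myeloid and 6 endothelial markers, 9, 7 and 5 lay below the filter. The summed level of the fibroblast markers was 3.52 to 4.22 FPKM in controls and 3.63 to 3.80 FPKM in the shSRSF3 libraries. That of the myeloid markers was 2.56 to 3.01 and 2.77 to 2.88 FPKM, and that of the endothelial markers 1.38 to 1.82 and 1.80 to 2.06 FPKM. COL1A2, PDGFRA, PTPRC and LYZ were at 0 in all 6 libraries.

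Promoter sequences are shown because AP-1, a dimer of FOS and JUN family proteins, is known to act on the promoters of several of these genes. They were also chosen because 3 of the 6 tested genes of AP-1 subunits were called higher (below), where 10.9% of all tested genes were. Whether AP-1 acts on the 9 genes in these cells was not tested. RefSeq tables (GRCh38.p14) held promoters for 6 of the 9 genes. The pattern TGANTCA (N is any base, so it is looser than the AP-1 consensus) and the related TGAGTAA were searched on both strands. The search covered the 250 bases before each start. TGANTCA was found as TGAGTCA in PLAUR and MMP7, and as TGAATCA, a looser match, in SERPINB5. The loose pattern was found in 6.57% of 35116 promoter windows of the same length. TGAGTAA was found in TIMP1, and in 2.21% of the windows. Neither was found in MMP14 or in either of the 2 PLAU windows. The sequences below run 5′ to 3′ toward the start, on the strand of the gene, with the matches in capitals.
PLAUR (chr19:43670170-43670419, minus strand): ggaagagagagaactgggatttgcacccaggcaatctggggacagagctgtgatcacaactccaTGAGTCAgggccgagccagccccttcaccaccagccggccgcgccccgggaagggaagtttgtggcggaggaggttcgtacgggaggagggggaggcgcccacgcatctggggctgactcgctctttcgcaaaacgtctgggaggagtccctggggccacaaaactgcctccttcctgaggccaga
SERPINB5 (chr18:63476708-63476957, plus strand): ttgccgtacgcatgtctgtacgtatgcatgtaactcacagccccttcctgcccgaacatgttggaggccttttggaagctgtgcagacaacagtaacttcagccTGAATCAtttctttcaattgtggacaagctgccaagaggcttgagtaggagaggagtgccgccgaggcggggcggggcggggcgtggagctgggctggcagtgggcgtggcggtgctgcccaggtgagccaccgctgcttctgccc
MMP7 (chr11:102530748-102530997, minus strand): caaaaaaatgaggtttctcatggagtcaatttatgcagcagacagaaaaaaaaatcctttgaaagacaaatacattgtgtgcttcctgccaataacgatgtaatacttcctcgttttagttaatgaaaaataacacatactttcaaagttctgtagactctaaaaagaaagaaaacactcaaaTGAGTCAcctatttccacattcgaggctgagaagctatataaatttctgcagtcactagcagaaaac
TIMP1 (chrX:47582186-47582435, plus strand): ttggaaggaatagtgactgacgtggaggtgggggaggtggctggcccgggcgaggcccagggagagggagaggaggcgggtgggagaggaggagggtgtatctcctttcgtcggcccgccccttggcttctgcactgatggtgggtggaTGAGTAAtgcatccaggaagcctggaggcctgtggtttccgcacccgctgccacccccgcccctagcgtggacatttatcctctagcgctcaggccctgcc
MMP14 (chr14:22836335-22836584, plus strand): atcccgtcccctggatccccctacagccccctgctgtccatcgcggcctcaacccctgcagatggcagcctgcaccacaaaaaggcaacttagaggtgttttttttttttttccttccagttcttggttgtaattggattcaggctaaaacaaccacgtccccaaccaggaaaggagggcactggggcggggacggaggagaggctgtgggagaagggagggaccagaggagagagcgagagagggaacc
The matched letters began 186 bases before the start in PLAUR, 146 in SERPINB5, 67 in MMP7 and 101 in TIMP1. A match describes these letters and was not tested as a binding site.

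Of the 7 tested genes, 4 passed the limma threshold (adjusted p under 0.05, Benjamini-Hochberg over 10823 genes), where 16.8% of all tested genes did. PLAUR and SERPINB5 were higher (2 genes, against 10.9% of tested genes higher), and MMP14 and PLAT were lower (2 genes, against 5.91% lower). PLAU and TIMP1 did not pass, with values that were higher in all 3 shSRSF3 libraries, and TIMP2 differed by less than its spread. The groups did not overlap in 6 of the 7 genes, a property of 37.9% of tested genes. The median log2 change of the 7 genes was 0.23, against 0.02 over all tested genes. All 7 were above the filter level in every library, so none entered the test through 1 group alone.

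**Figure D1:**
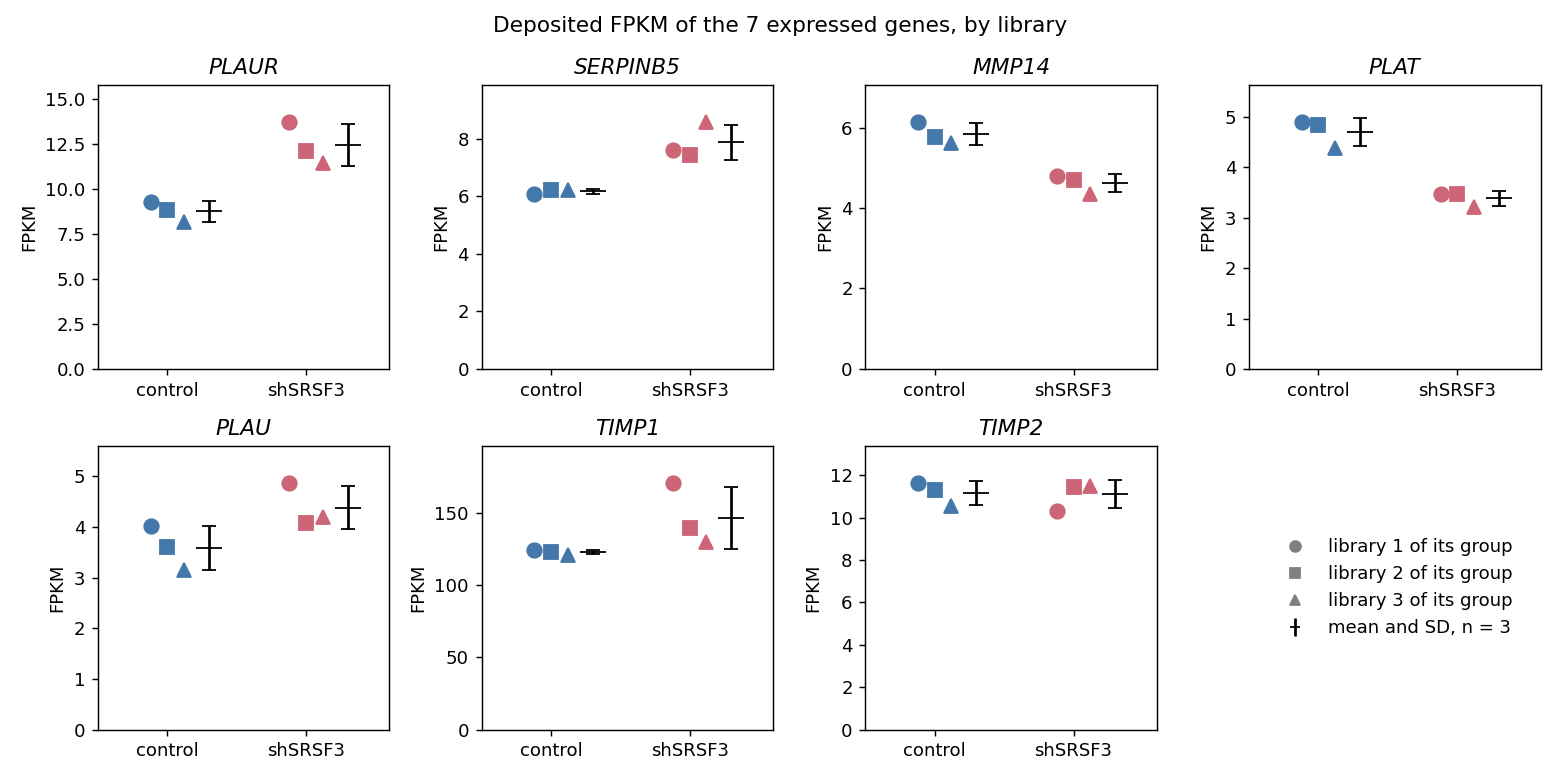
FPKM (vertical axes) of the 7 expressed genes in each of the 3 control libraries (blue) and the 3 shSRSF3 libraries (red), with the mean and SD of each group (n = 3) in black. PLAUR and SERPINB5 lie higher and MMP14 and PLAT lower in all 3 shSRSF3 libraries, and the groups overlap only for TIMP2.

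Among the proteases that cut matrix proteins, MMP14 was the only 1 of the 3 listed metalloproteases with a measurable level. MMP14 is anchored in the cell membrane, cleaves collagens and activates the gelatinase MMP2. It stood at 6.14, 5.78 and 5.62 FPKM in control libraries 1 to 3 and at 4.80, 4.70 and 4.36 FPKM in shSRSF3 libraries 1 to 3. The lowest control lay above the highest shSRSF3 library. MMP14 fell by 20.9% in mean FPKM (log2 change of FPKM + 1 of -0.28, SE 0.06, 95% interval from -0.42 to -0.15, limma adjusted p = 0.0114). These values rest on 523 to 686 fragments per library, and the spread of 4.57% in controls was near the 3.86% that counting alone gives. In such bulk samples fewer cells with a transcript and less of it per cell cannot be told apart.

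MMP1, the interstitial collagenase, had 1 fragment, the smallest whole number that gives its value, in control library 3 (0.0186 FPKM) and 0 in the other 5 libraries. MMP7, or matrilysin, a small secreted protease of glandular epithelium, had 1 fragment in control library 3 and 1 in shSRSF3 library 2 (0.0157 and 0.0173 FPKM) and 0 elsewhere. Neither gene could therefore be usefully compared between groups. Exact permutation tests gave p = 1 for both, but with only 1 library above 0 no other result was possible for MMP1. For MMP7, with 1 fragment in each group, the test carries almost no information. A count of 0 allows up to 3 fragments, or 0.0557 to 0.0620 FPKM for MMP1 and 0.0472 to 0.0526 FPKM for MMP7, for counting error only and with gene lengths that rest on these few fragments. MMP7 had the letters TGAGTCA shown above and almost no transcript. PLAUR had the same 7 letters and a level of 8.14 FPKM or more in every library. A link between these letters and the level was not tested.

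The rest of the family showed the same division. Of 23 metalloprotease genes in the table, 3 passed the filter, and all 3 (MMP14, MMP15 and MMP24) encode membrane-anchored enzymes. The other 20 had at most 0.195 FPKM in a library, reached by MMP25, and 6 of them were at 0 in all 6 libraries. MMP16, MMP17 and MMP25, which also encode membrane-anchored enzymes, were among these 20. MMP15 was the most abundant, at 19.1 ± 0.642 FPKM in controls and 17.9 ± 1.76 FPKM in the shSRSF3 libraries (SD, n = 3; log2 change -0.09, limma adjusted p = 0.364). MMP24 had 2.89 ± 0.134 and 2.98 ± 0.247 FPKM (limma adjusted p = 0.768). The 2 other expressed metalloproteases therefore gave 0 calls, with 0 also at an unadjusted p under 0.05. The summed level of the 3 was 27.2 to 29.0 FPKM in controls and 23.9 to 27.6 FPKM in the shSRSF3 libraries, and these ranges overlapped (exact permutation p = 0.3). The gelatinase gene MMP2, whose product MMP14 is known to activate, had at most 4 fragments in a library, and MMP9, the other gelatinase, at most 0.0516 FPKM.

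**Figure D2:**
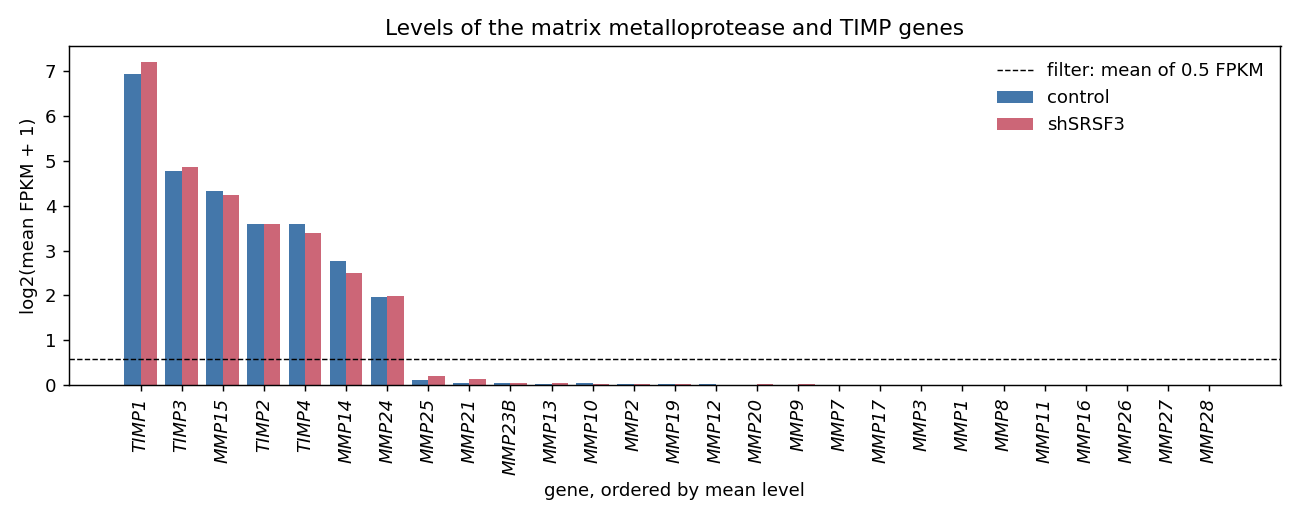
Mean level of 23 metalloprotease genes and 4 TIMP genes (vertical axis log2 of mean FPKM + 1, genes ordered by their mean over 6 libraries) in controls (blue) and shSRSF3 libraries (red). The dashed line marks the filter at a mean of 0.5 FPKM, above which lie the 4 TIMP genes, MMP15, MMP14 and MMP24.

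TIMP1, a secreted inhibitor of most soluble metalloproteases and a weak one of MMP14, was the highest of the 9 genes and lay above 97.8% of tested genes in mean FPKM. It stood at 124.2, 123.2 and 121.2 FPKM in control libraries 1 to 3 and at 171.0, 139.9 and 129.7 FPKM in shSRSF3 libraries 1 to 3. All 3 shSRSF3 libraries were above all controls, but they were far apart, with a spread of 14.7% against 1.26% in controls. The mean was 19.5% higher (log2 change 0.25, SE 0.09, 95% interval from 0.05 to 0.44), which did not pass (limma adjusted p = 0.0780). Library 1 of the shSRSF3 group, which stood apart above, had the highest TIMP1, and without it the log2 change was 0.13 (limma adjusted p = 0.103). Without shSRSF3 library 3 it was 0.33 and passed (limma adjusted p = 0.0145). It also passed narrowly with limma voom on recovered fragments (adjusted p = 0.0491) and at a mean of at least 5 FPKM (0.0486).

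TIMP2 is the inhibitor through which MMP14 binds and activates the MMP2 precursor. It stood at 11.6, 11.3 and 10.5 FPKM in control libraries 1 to 3 and at 10.3, 11.4 and 11.5 FPKM in shSRSF3 libraries 1 to 3. The groups overlapped, and the log2 change was -0.01 (95% interval from -0.14 to 0.12, limma adjusted p = 0.943). This interval leaves room for a small change in either direction. The other inhibitors and inducers on a list of 7 genes gave 0 limma calls among 4 tested, where 16.8% of all tested genes were called. Among the 4, 1 had an unadjusted p under 0.05. That gene was TIMP4, at 11.1 ± 1.16 and 9.49 ± 0.487 FPKM (SD, n = 3; limma adjusted p = 0.0765), which passed without control library 3 (0.0368) and without shSRSF3 library 3 (0.0446). TIMP3, an inhibitor bound to the matrix, had 26.5 ± 1.04 and 28.0 ± 1.44 FPKM, which did not pass (limma adjusted p = 0.359). BSG, a surface glycoprotein known to induce metalloproteases in neighbouring cells, had 352.3 ± 15.6 and 385.6 ± 22.0 FPKM (limma adjusted p = 0.199). It passed without shSRSF3 library 3 (0.0493). The membrane-anchored inhibitor RECK was low, at 0.724 and 0.821 FPKM on average.

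Of the 2 plasminogen activators, PLAT was called lower and PLAU was not called. PLAT, which acts mainly on fibrin clots, stood at 4.90, 4.84 and 4.39 FPKM in control libraries 1 to 3 and at 3.48, 3.46 and 3.21 FPKM in shSRSF3 libraries 1 to 3. No shSRSF3 library reached the lowest control. PLAT fell by 28.1% in mean FPKM (log2 change -0.38, SE 0.06, 95% interval from -0.52 to -0.24, limma adjusted p = 0.00381), on 571 to 818 fragments per library.

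PLAU, the activator tied to cell surfaces and tissue remodelling, stood at 4.02, 3.59 and 3.15 FPKM in control libraries 1 to 3. In shSRSF3 libraries 1 to 3 it stood at 4.87, 4.07 and 4.20 FPKM, the lowest of which lay just above the highest control. The mean was 22.1% higher (log2 change 0.23, SE 0.08, 95% interval from 0.05 to 0.41), which did not pass (limma adjusted p = 0.0801). PLAU was the thinnest of the 7 genes, with 254 to 368 fragments per library, and its spread in controls of 12.1% was above the 6.06% of counting noise. C10orf55, which overlaps PLAU in RefSeq, had at most 3 fragments in a library. SYN1, which overlaps TIMP1, had at most 2, and CEP295NL, which overlaps TIMP2, at most 18, so few reads lay on these partners although whether counting used strand is not given.

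The ratio of PLAU to PLAT within each library does not depend on the scaling of the library. It was 0.819, 0.743 and 0.718 in control libraries 1 to 3 and 1.40, 1.17 and 1.31 in shSRSF3 libraries 1 to 3. PLAT thus had the higher FPKM in every control and PLAU in every shSRSF3 library. Which of them leads also depends on the gene lengths used, recovered as 6618 bases for PLAT and 2950 for PLAU. In fragments PLAT led in every library, with at least 571 against at most 368 for PLAU. A switch of the more abundant activator is therefore not shown, only a higher ratio. Since PLAU lay higher and PLAT lower in every shSRSF3 library, the ratio could not overlap between the groups. The mean ratio was 0.760 ± 0.053 against 1.29 ± 0.113 (SD, n = 3; exact two-sided permutation p = 0.1, the smallest that 3 against 3 allows, and 0.114 adjusted over 8 ratios). The sum of both activators overlapped between the groups, at 7.53 to 8.92 FPKM in controls and 7.41 to 8.35 FPKM in the shSRSF3 libraries (exact permutation p = 0.3).

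PLAUR, the receptor that gathers urokinase at the cell surface and also binds vitronectin, had the largest log2 change of the 7 tested genes. It stood at 9.27, 8.81 and 8.14 FPKM in control libraries 1 to 3 and at 13.7, 12.1 and 11.4 FPKM in shSRSF3 libraries 1 to 3. The groups were well apart. PLAUR rose by 42.0% in mean FPKM (log2 change 0.46, SE 0.07, 95% interval from 0.30 to 0.62, limma adjusted p = 0.00314), on 992 to 1565 fragments per library. It was highest in shSRSF3 library 1, and without that library the log2 change was 0.39 (limma adjusted p = 0.00478). The ratio of PLAUR to its ligand gene PLAU was 2.45 ± 0.138 in controls and 2.84 ± 0.126 in the shSRSF3 libraries, with no overlap (SD, n = 3; exact permutation p = 0.1, 0.114 adjusted over 8 ratios).

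SERPINB5, or maspin, belongs to the serpin family by sequence but is known not to inhibit proteases in the classical way, and it is commonly raised in pancreatic carcinoma. It stood at 6.07, 6.22 and 6.22 FPKM in control libraries 1 to 3 and at 7.59, 7.44 and 8.57 FPKM in shSRSF3 libraries 1 to 3. Every shSRSF3 library was above the narrow range of the controls, and here shSRSF3 library 3 was the highest. SERPINB5 rose by 27.6% in mean FPKM (log2 change 0.30, SE 0.06, 95% interval from 0.17 to 0.44, limma adjusted p = 0.00957), on 587 to 922 fragments per library. The control spread of 1.40% was below the 3.99% of counting noise, so these 3 values lie closer together than counting would usually place them.

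**Figure D3:**
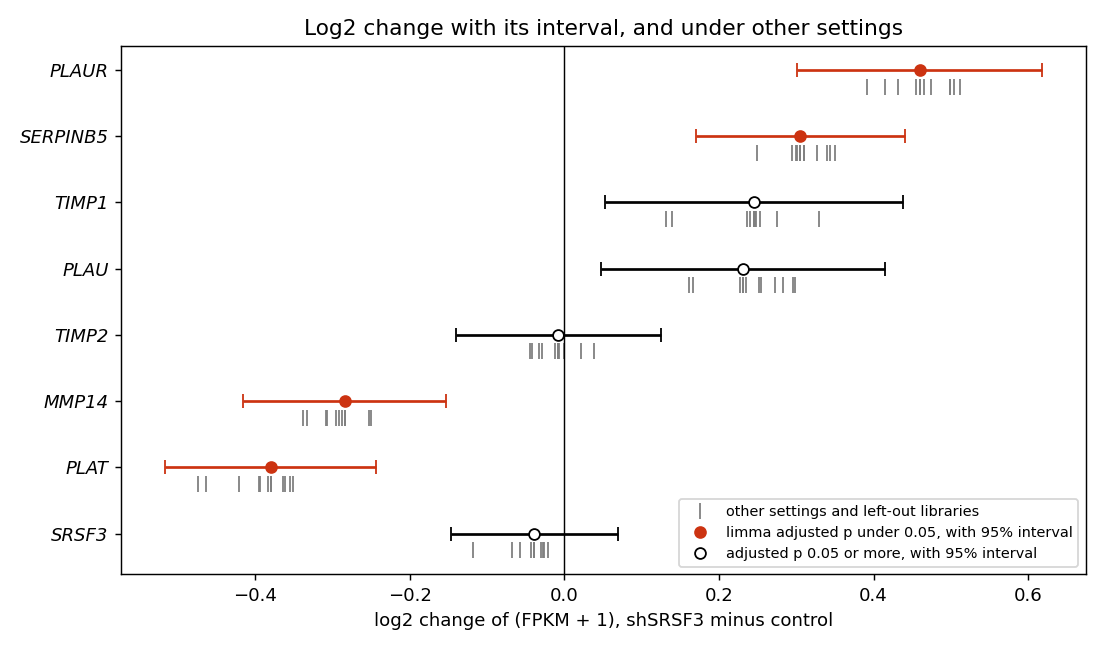
Log2 change of FPKM + 1, shSRSF3 libraries minus controls (horizontal axis), with the 95% interval from limma for the 7 tested genes and SRSF3, and grey ticks for the other settings and left-out libraries. The intervals of PLAUR, SERPINB5, MMP14 and PLAT and all of their ticks lie on 1 side of 0, and the intervals of TIMP2 and SRSF3 span 0.

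The order of mean FPKM, which depends on the length used for each gene, shifted between the groups. In controls TIMP1 led, followed by TIMP2, PLAUR, SERPINB5, MMP14, PLAT and PLAU, with only SERPINB5 and MMP14 overlapping in range among these neighbours. In the shSRSF3 libraries the order was TIMP1, PLAUR, TIMP2, SERPINB5, MMP14, PLAU and PLAT. There PLAUR overlapped with TIMP2 and lay just below it in shSRSF3 library 3 (ratio 0.993), and MMP14 overlapped with PLAU. The ratio of MMP14 to TIMP2 was 0.524 ± 0.011 in controls and 0.418 ± 0.043 in the shSRSF3 libraries (SD, n = 3), and that of PLAUR to TIMP2 was 0.783 ± 0.012 and 1.13 ± 0.177. TIMP1 stood at 21.0 ± 0.708 times MMP14 in controls and at 31.7 ± 3.39 times in the shSRSF3 libraries. SERPINB5 stood at 1.06 ± 0.061 times MMP14 in controls and at 1.71 ± 0.223 times in the shSRSF3 libraries. None of these 4 ratios overlapped between groups (exact permutation p = 0.1 each, 0.114 adjusted over 8 ratios). All 8 ratios were chosen after the values were seen. SERPINB5 and TIMP1 lay higher and MMP14 lower in every shSRSF3 library, so the ratios of SERPINB5 and TIMP1 to MMP14 had to separate. These tests therefore add no support to the values of the single genes. The ratio of TIMP1 to TIMP2 did overlap, at 11.0 ± 0.421 and 13.3 ± 2.82 (exact permutation p = 0.2, also 0.2 adjusted).

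**Figure D4:**
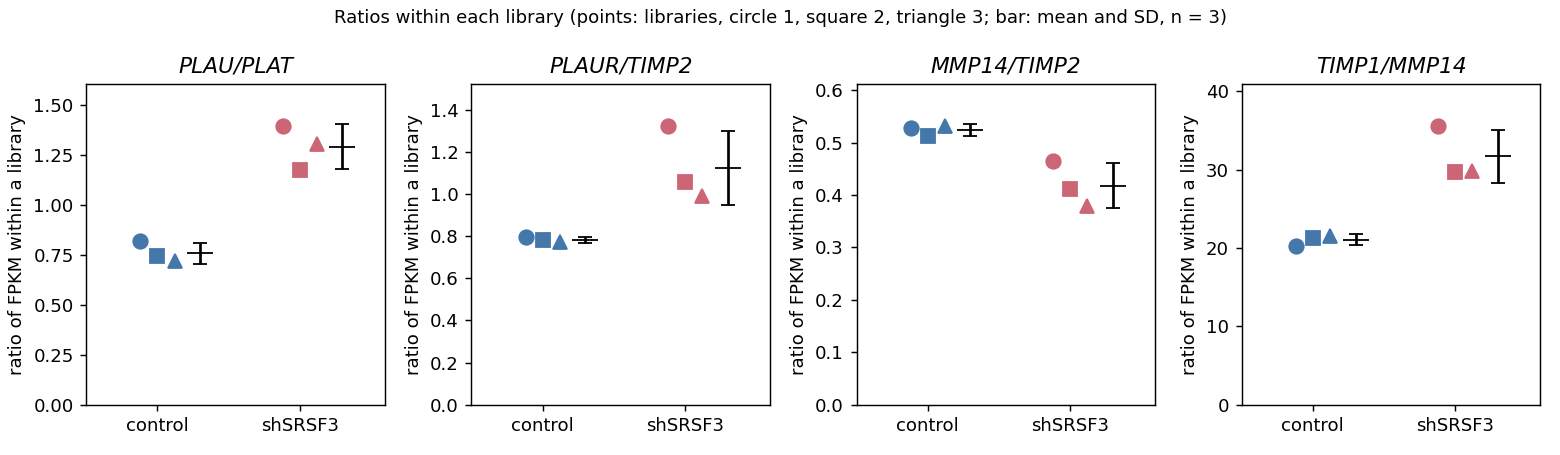
Ratio of FPKM within a library (vertical axes) for 4 gene pairs, with 1 point for each of the 3 libraries per group and the group's mean and SD in black. The PLAU to PLAT ratio lies below 1 in the 3 controls, at 0.718 to 0.819, and above 1 in the 3 shSRSF3 libraries, at 1.17 to 1.40. Its place relative to 1 depends on the gene lengths used.

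Of 20 other genes of the plasminogen system, 11 were tested, 2 were higher and 0 lower, a share near the 16.8% called among all tested genes. The median log2 change of the 11 was 0.13, against 0.02 over all tested genes. The groups did not overlap in 6 of the 11, against 37.9% of all tested genes. PLG, the gene of plasminogen itself, which is made mainly in the liver, was at 0 in all 6 libraries. The called genes were SERPINE2, a serpin that inhibits urokinase and thrombin, and VTN, or vitronectin, a ligand of PLAUR. SERPINE2 rose from 8.79 ± 0.106 to 10.2 ± 0.671 FPKM (limma adjusted p = 0.0485), a call lost, with 1 library left out at a time, without control libraries 1, 2 and 3 (0.0986, 0.155 and 0.151) and without shSRSF3 libraries 1 and 3 (0.110 and 0.0600), and also with median scaling (0.0568), with quantile normalization (0.0665) and with no filter (0.0871). VTN rose from 13.9 ± 0.969 to 16.1 ± 0.728 FPKM (limma adjusted p = 0.04998), a call lost in 10 of 14 alternatives, with adjusted p up to 0.201 without control library 3. Without control libraries 1 and 2 and shSRSF3 libraries 1 and 2 its adjusted p was 0.0958, 0.0759, 0.0910 and 0.148. ENO1 and SERPINI1 just missed the threshold (limma adjusted p = 0.0518 and 0.0587), and passed in 5 of 14 and 3 of 13 alternatives. The log2 change of ENO1 was 0.24, and with quantile normalization it was 0.025 (limma adjusted p = 0.590).

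Of 8 tested ADAM and ADAMTS genes, proteases of the cell surface and matrix, 1 was lower and 0 higher (median log2 change -0.02), where 5.91% of all tested genes were lower and 10.9% higher. That gene was the sheddase ADAM10, at 5.45 ± 0.211 and 4.62 ± 0.250 FPKM (SD, n = 3; log2 change -0.20, limma adjusted p = 0.0439), a call lost without control libraries 1, 2 and 3 (0.0657, 0.165 and 0.153), without shSRSF3 libraries 1 and 2 (0.0936 and 0.118) and with no filter (0.0861). Of 11 tested membrane serine proteases, proprotein convertases and their inhibitors, the androgen-responsive protease TMPRSS2 alone was called (median log2 change of the 11, 0.07), and it fell from 2.98 ± 0.070 to 2.28 ± 0.167 FPKM (log2 change -0.28, limma adjusted p = 0.0144). Leaving out control library 2 or 3 or shSRSF3 library 2 ended that call (0.0582, 0.0672 and 0.0587). FURIN, which cuts the MMP14 precursor, stood at 81.1 ± 4.09 and 85.1 ± 2.90 FPKM (limma adjusted p = 0.406).

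Among the other serpins of clade B, the group that holds SERPINB5, 4 were tested, 1 was lower and 0 higher (median log2 change -0.16). Of all tested genes, 5.91% were lower and 10.9% higher, and a count among 4 genes is too small to set against these shares. SERPINB1, an inhibitor of neutrophil proteases, fell from 57.7 ± 0.389 to 51.9 ± 0.759 FPKM (SD, n = 3; log2 change -0.15, limma adjusted p = 0.0445). Leaving out control library 1, 2 or 3 ended this call (0.112, 0.186 and 0.137), as did the fits without shSRSF3 library 2 (0.114) and with robust empirical Bayes (0.0505). SERPINB6 and SERPINB9 had log2 values of -0.18 and -0.17 that did not pass (limma adjusted p = 0.0651 and 0.127). Each passed without shSRSF3 library 1 (0.0245 and 0.0248). Counting that fit, SERPINB6 passed in 4 of 14 alternatives and SERPINB9 in 1 of 13.

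Of 13 tested cathepsins and cystatins, lysosomal proteases and their inhibitors, 2 rose and 1 fell (median log2 change 0.08), where 10.9% of all tested genes rose and 5.91% fell. CTSA rose from 24.5 ± 0.535 to 28.4 ± 0.770 FPKM (limma adjusted p = 0.0172). CTSB, a cathepsin known to activate the urokinase precursor, rose from 12.6 ± 0.202 to 14.5 ± 0.971 FPKM (limma adjusted p = 0.0488), and CTSH fell from 4.05 ± 0.223 to 3.24 ± 0.301 FPKM (limma adjusted p = 0.0311). Leaving out control library 1, 2 or 3 or shSRSF3 library 2, each alone, ended all 3 calls, with adjusted p = 0.0527, 0.0666, 0.0846 and 0.0633 for CTSA, 0.111, 0.132, 0.160 and 0.152 for CTSB, and 0.0958, 0.0586, 0.118 and 0.109 for CTSH. CTSB was also lost without shSRSF3 library 1 (0.101), with median scaling (0.0570) and, like CTSH (0.0871), with no filter (0.0898). With quantile normalization all 3 were lost as well (0.0606, 0.105 and 0.0539).

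Among 12 tested genes of AP-1 and ETS factors and others known to act on the promoters of these proteases, 4 rose and 1 fell (median log2 change 0.11), where 10.9% of all tested genes rose and 5.91% fell. The AP-1 subunit gene FOSL1 rose from 48.4 ± 2.33 to 78.6 ± 8.03 FPKM (SD, n = 3; log2 change 0.68, limma adjusted p = 4.27e-04). JUN rose by 0.47 and JUND by 0.28 on the log2 scale (limma adjusted p = 2.73e-04 and 0.00828). The ETS factor gene ETV4 rose from 23.1 ± 1.67 to 27.9 ± 1.12 FPKM (limma adjusted p = 0.0162), a call lost without control library 3 (0.0705), without shSRSF3 library 2 (0.0646) and with no filter (0.0521). ELF3, an epithelial ETS factor, fell from 2.76 ± 0.116 to 1.36 ± 0.104 FPKM (log2 change -0.67, limma adjusted p = 1.99e-04). The FOS gene stood at 1.16 ± 0.071 and 1.45 ± 0.102 FPKM and did not pass (limma adjusted p = 0.0805), nor did the subunit genes FOSL2 and JUNB, with log2 values of 0.09 and 0.12 (limma adjusted p = 0.216 and 0.169). The part of these factors in the changes of PLAUR, SERPINB5, MMP14 and PLAT was not tested.

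For the 4 genes that passed, the nearest profiles were sought among the other genes with a mean of at least 5 FPKM. These were 6310 genes, or 6311 for PLAT, whose own mean is below 5 FPKM. Nearness was the root mean square difference of the log2 deviations from the mean over 6 libraries. All profiles share the same libraries, so this is a description. Nearest to MMP14 were TNC, the matrix glycoprotein tenascin-C, at 0.013, and the mitotic genes GTSE1 at 0.027 and FAM83D at 0.031. Nearest to PLAT were the cytokinesis kinase gene CIT at 0.024, the ER stress gene HERPUD1 at 0.028 and the actin-binding TAGLN2 at 0.036. Nearest to PLAUR were PDCD11 at 0.022, of ribosomal RNA processing, the sphingomyelinase gene SMPD1 at 0.030 and the homeobox gene HOXB8 at 0.032. Nearest to SERPINB5 were the Hippo pathway gene SAV1 at 0.035, the interferon-induced IFIT2 at 0.041 and the choline kinase gene CHKA at 0.043. TNC fell from 34.3 to 27.8 FPKM on average, a log2 change of -0.29 beside the -0.28 of MMP14 (limma adjusted p = 0.00743). This likeness follows from picking TNC as the nearest profile, and shared control was not tested.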

How the data were processed

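RNA was sequenced from 6 libraries, and per the labels' protocols a poly(A)-selected and an rRNA-depleted preparation were used. The sources do not say which of them gave these values. One FPKM value per gene symbol and library was deposited by the authors. Per the submitters' processing notes, the tools were HISAT2, StringTie, Cuffdiff and edgeR, without role or version. Genome build, annotation and strand setting: not given in the sources used here. FPKM depends on the gene length used and on all other RNA in a library.

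The members, gene lists, tests and motifs were chosen with earlier results of these data known, and the ratios after the values were seen. limma 3.58.1 in R 4.3.3 (lmFit, eBayes with trend, two-sided) was run on log2(FPKM + 1) over the 10823 rows whose mean reached 0.5 FPKM, with Benjamini-Hochberg adjustment at 0.05. No rescaling was applied. Fold changes on this scale understate low genes. The rule for named genes took the 9 members, SRSF3, up to 4 genes per list with the smallest p, and the 3 nearest profiles of each called member; further genes were named for their level or call after their values were seen. Among rows that were above 0 in 3 or more libraries, 14776 of 14803 (99.8%) gave whole fragments within 0.003 from 1 total per library and 1 length per gene, all tested members included. These fragments show the depth and fed limma voom. Alternatives were another pseudocount, no filter, a mean of at least 5 FPKM, median scaling, quantile normalization, robust empirical Bayes, voom, a replicate block and each library left out. The lncRNA table was not used here. Of the 8 ratios tested, 1 is not reported here, nor are the values of 1 listed gene.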

Additional observations from a re-analysis of the deposited data

How the results depend on the processing

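The calls of PLAUR, SERPINB5 and MMP14 kept their direction and their side of the threshold in all 14 alternatives, with log2 changes of 0.39 to 0.51, 0.25 to 0.35 and -0.34 to -0.25 and adjusted p of at most 0.0260, 0.0426 and 0.0489. PLAT did so in all 13 that could be run (-0.47 to -0.35, adjusted p of at most 0.0252), since its mean is below 5 FPKM. PLAU, also below 5 FPKM, ranged from 0.16 without control library 3 to 0.30 without control library 1 and passed in 1 of 13, and TIMP1 ranged from 0.13 to 0.33 and passed in 4 of 14. TIMP2 (-0.04 to 0.04) and SRSF3 (-0.12 to -0.02) passed in none of their 14. Over all genes, 1819 passed, 960 with no filter and 647 to 2742 when 1 library was left out (without control library 2 and without shSRSF3 library 3). The fit without the filter tests 16315 genes. Of the calls, 64.8% were higher, and 50.3% with quantile normalization, under which the members' directions held. With the replicate number as a block, 6 members passed, PLAU (adjusted p = 0.0285) and TIMP1 (0.0384) in addition, as did 2323 genes in all. Same-numbered libraries deviated together only weakly for numbers 1 and 2 (correlation of deviations 0.08 and 0.04, against 0.28 for number 3), and the labels tie the numbers to no shared culture or day. Depth limits MMP1 and MMP7, for which a change could not be measured.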
